A study of Mus musculus with 40 samples.

Results

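The 10 genes described here make or sense lipid mediators derived from membrane phospholipids: the cyclooxygenases Ptgs1 and Ptgs2, the prostaglandin E synthase Ptges, the prostaglandin E receptors Ptger2 and Ptger4, the prostacyclin receptor Ptgir, 5-lipoxygenase (Alox5) and its activating protein Alox5ap, the leukotriene B4 receptor Ltb4r1, and the receptor of platelet-activating factor (PAF), Ptafr. They were chosen by symbol from the count table of CT26 tumors, in which they are 10 of 54087 genes. All 10 were detected in every mouse and passed the filter on low counts, as did 14760 genes in all. As background, phospholipases release arachidonic acid from membranes, cyclooxygenases turn it into the precursor of prostaglandins and thromboxane, and 5-lipoxygenase, helped by Alox5ap, turns it into leukotrienes. Prostaglandin E, made in tumors by cyclooxygenase and Ptges, is known to restrain T cells, NK cells and dendritic cells through the receptors encoded by Ptger2 and Ptger4. Leukotriene B4 and PAF attract and activate neutrophils, macrophages and other myeloid cells through G protein-coupled receptors.

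Bulk tumor RNA was sequenced from 40 BALB/c mice, 5 in each of 8 groups. Every mouse had received a subcutaneous injection of 1000000 CT26 cells, a line derived from a chemically induced colon carcinoma of BALB/c mice, then intraperitoneal mAbs on days 6, 9 and 12, and tumor fragments were collected on day 13. The study asked how blocking TGF-β1 activation at the GARP:TGF-β1 complex, which regulatory T cells carry on their surface, acts with PD-1 blockade. The isotype group received motavizumab, an antibody with no target in these mice. The 4 single mAbs were anti-GARP:TGF-β1 WT (clone 58A2, with a mouse IgG2a Fc part that binds Fcγ receptors), anti-GARP:TGF-β1 FcD (the same clone with an Fc-dead part that does not bind them), anti-TGF-β (clone 1D11, which neutralizes active TGF-β of every isoform) and anti-PD-1 FcS (with an Fc-silent part). The other groups received anti-PD-1 FcS with anti-GARP:TGF-β1 WT, with anti-GARP:TGF-β1 FcD or with anti-TGF-β, called here the WT, FcD and anti-TGF-β combinations. All tumors came from a single transplanted line, and each library mixes tumor cells with host stroma and leukocytes.

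Totals ran from 11931730 to 20680548 counts per mouse (median 14030511), and mitochondrial genes took 0.919 to 2.48% of them. The library numbers in the labels run from 41 to 80, and the libraries fall into 2 sets of 20 mice: numbers 41 to 60 hold at least 266 counts of Y-linked genes and at most 6 of Xist, and numbers 61 to 80 hold at most 1 and at least 784, respectively. Each group has 2 or 3 mice in each set, and both sets are shown beside the results. As a check of the tissue, the intestinal transcription factor Cdx2 had a median of 4.36 counts per 1000000 (CPM) and the keratin Krt18 one of 10.5 CPM, but the epithelial marker Epcam had a median of 0.546 CPM with 7 mice at 0, and Vil1 was at 0 in 16 mice. Replicate 5 of the WT combination stood apart, with a median correlation of 0.9205 with the other libraries, the lowest of the 40 mice. Replicate 4 of the FcD combination had the next lowest (0.9475) and the highest sums of epithelial (503 CPM), adipocyte (570 CPM) and keratinocyte (28.7 CPM) markers. Many values are therefore also given without these mice.

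The promoters of the 2 cyclooxygenase genes, of Ptges and of Ptafr are printed because Ptgs1 and Ptges went one way across mice and Ptafr the other, while Ptgs2, the other cyclooxygenase gene, had weaker linear correlations with all 3. They run from 250 bases before to 50 after the RefSeq start in GRCm38.p6, 5′ to 3′ on the gene's strand, and RefSeq's table held 9 of the 10 genes, all but Alox5ap. Capitals mark matches, on either strand, to CAGAC (the core of Smad binding elements), GGGCGG (a GC box), TGACG (the first part of a cAMP response element) or CACGTG (an E-box). The window of Ptgs1 is chr2:36230176-36230475 (+), that of Ptgs2 chr1:150099781-150100080 (+), that of Ptges chr2:30903248-30903547 (−) and that of Ptafr chr4:132563817-132564116 (+). The Ptges window lies inside the span of the gene in the annotation used for its position (chr2:30889471-30929863), downstream of the 5′ end given there.
Ptgs1: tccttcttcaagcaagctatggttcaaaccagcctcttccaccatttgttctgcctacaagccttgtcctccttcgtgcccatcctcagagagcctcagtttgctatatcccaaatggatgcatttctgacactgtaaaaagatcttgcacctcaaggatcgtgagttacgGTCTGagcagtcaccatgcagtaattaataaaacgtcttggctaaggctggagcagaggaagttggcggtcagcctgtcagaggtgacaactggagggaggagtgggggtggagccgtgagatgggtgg
Ptgs2: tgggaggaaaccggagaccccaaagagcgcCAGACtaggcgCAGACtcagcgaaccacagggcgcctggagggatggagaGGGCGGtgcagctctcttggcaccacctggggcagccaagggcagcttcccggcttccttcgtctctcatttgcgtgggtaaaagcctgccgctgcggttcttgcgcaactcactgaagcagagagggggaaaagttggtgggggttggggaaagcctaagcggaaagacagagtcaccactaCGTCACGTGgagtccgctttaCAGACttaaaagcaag
Ptges: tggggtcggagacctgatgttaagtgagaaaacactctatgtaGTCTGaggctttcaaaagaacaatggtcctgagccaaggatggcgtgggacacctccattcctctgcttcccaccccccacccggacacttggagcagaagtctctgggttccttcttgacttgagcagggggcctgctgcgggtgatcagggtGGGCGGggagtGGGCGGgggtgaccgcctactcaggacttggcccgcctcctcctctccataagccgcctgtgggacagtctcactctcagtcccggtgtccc
Ptafr: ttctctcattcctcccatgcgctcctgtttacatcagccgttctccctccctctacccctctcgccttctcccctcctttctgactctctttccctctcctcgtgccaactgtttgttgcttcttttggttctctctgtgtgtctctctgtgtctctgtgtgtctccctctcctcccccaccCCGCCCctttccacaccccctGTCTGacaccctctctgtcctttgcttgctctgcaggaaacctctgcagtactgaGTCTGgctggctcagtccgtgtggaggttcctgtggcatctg

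The Ptgs1 window holds CAGAC once, at bases 172 to 176 counted from its 5′ end, and no GC box. The Ptgs2 window holds CAGAC 3 times, GGGCGG once at bases 81 to 86, and, at bases 264 to 272, a TGACG that overlaps a CACGTG. The Ptges window holds GGGCGG at bases 198 to 203 and 209 to 214 and CAGAC at bases 44 to 48. The Ptafr window holds GGGCGG at bases 183 to 188 and CAGAC at bases 204 to 208 and 259 to 263. Over the 9 promoters, CAGAC occurred in 8 and GGGCGG in 7, against 49.6% and 35.7% of all 32851 RefSeq promoters of the same length. The E-box and the TGACG stretch were found in 1 of the 9, that of Ptgs2, against 7.15% and 20.8% of all promoters. None of the 9 windows held a full cAMP response element (TGACGTCA, in 1.79% of all promoters), an AP-1 site (TGACTCA, in 5.2%), a TATA box (TATAAA, in 13.6%) or the NF-kB motif (in 4.51%). A match to a short motif is a match of letters and not a measured binding site.

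The 10 genes spanned a wide range of levels. Per kilobase of exons, the mean level over the 40 mice was highest for Ptges (56.8 CPM per kb), then Alox5ap (45.5), Ptgs2 (35.2) and Ptgs1 (33.3). Ptafr (5.72 CPM per kb) and Ltb4r1 (4.56) were lower, and Ptger4 (0.93), Alox5 (0.929), Ptgir (0.767) and Ptger2 (0.409) were lowest. Ptges was read at high depth, with 1336 to 4739 counts per mouse, and the receptors of its product at low depth, with 8 to 147 counts of Ptger2 and 26 to 369 of Ptger4. The prostacyclin receptor Ptgir had 14 to 68 counts. The ratio of the highest to the lowest mouse was smallest for Ptges (3.44) and Ptgs1 (3.46) and largest for Ptger2 (13.8), Ptger4 (10.6) and Ptafr (9.16). When the 8 groups were put in order of their mean, neighbouring groups overlapped in 7 of 7 steps for each of the 10 genes, and in 1 step, for Ptger4 from the anti-TGF-β combination to isotype (1.21 CPM), the means differed by more than the larger SD (1.09 CPM).

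**Figure D1:**
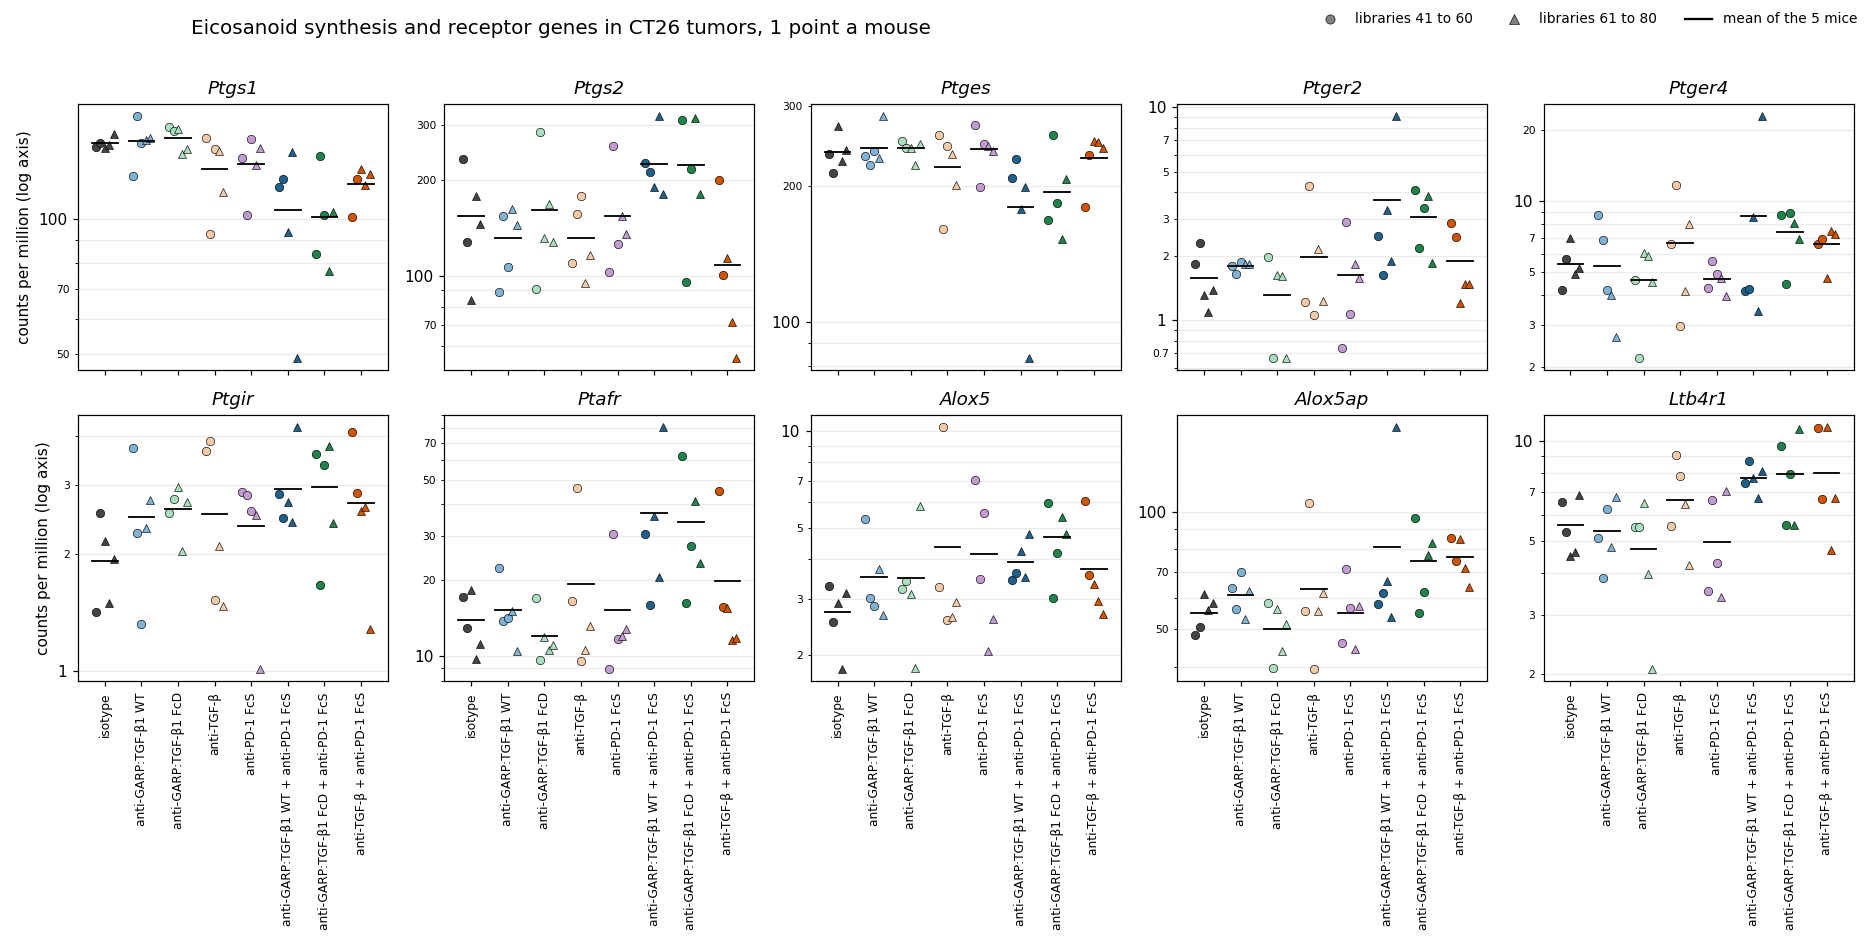
CPM (log axis) of the 10 genes in each of the 40 tumors, 1 panel a gene and 1 column a treatment group, with circles for libraries 41 to 60, triangles for libraries 61 to 80 and a line at the mean of the 5 mice. The 5 isotype tumors lie between 144 and 155 CPM of Ptgs1, above every mouse of the WT combination (49.0 to 141 CPM), while Ptafr reaches 81.2 CPM in that combination against at most 18.3 CPM in isotype tumors.

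Against isotype, the largest differences of these genes were in the WT and FcD combinations, in both of which Ptafr and Ptger2 had higher means and Ptgs1 and Ptges lower ones. None of the 10 genes passed an adjusted p of 0.05 (edgeR's quasi-likelihood test, Benjamini-Hochberg over 14760 genes) in any of the 7 comparisons with isotype, in which 0% of all genes passed, and DESeq2's Wald test called 0 of the 10 as well. At an unadjusted p under 0.05, the WT combination had 5 of the 10 called, 3 higher (Ptafr, Ptger2 and Alox5ap) and 2 lower (Ptgs1 and Ptges), against 20.7% of all genes (13.2% higher and 7.47% lower). With the FcD combination 5 were called, 4 higher (Ptafr, Ptger2, Ptgir and Alox5) and 1 lower (Ptgs1), against 16.6% of all genes (10.7% higher and 5.85% lower). The anti-TGF-β combination had 1, Alox5ap, higher, against 20.1% of all genes (8.49% higher and 11.6% lower). By DESeq2's test, which ran on all genes with a count, the numbers at this threshold were 6, 5 and 2, against 11.3%, 9.5% and 10.5% of all genes. These counts moved with single mice, as did the share of all genes, which ran from 5.85 to 28.3% (WT), 8.02 to 29.9% (FcD) and 11.5 to 29.8% (anti-TGF-β) with 1 mouse left out. Without replicate 5 of the WT combination, 2 of the 10 were called, Ptafr and Ptgs1. For the FcD combination 2 were called without its replicate 1 or isotype replicate 4, 3 without its replicate 4 or isotype replicate 3, and 9 without its replicate 2. For the anti-TGF-β combination 0 were called without its replicate 3 or isotype replicates 2 or 4, 2 without its replicate 4 or isotype replicate 5, and 3 without its replicate 5.

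The 10 genes had a median log2 fold change of 0.56 (WT combination), 0.52 (FcD combination) and 0.37 (anti-TGF-β combination), where the medians of all genes were 0.013, -0.004 and 0.022. Single mice stood high in each combination. Replicate 5 (WT), replicate 1 (FcD) and replicate 1 (anti-TGF-β) ranked among the 5 highest of the 40 mice for 5, 7 and 5 of the genes. The medians without these mice are not given here. Of the 10, 8 had a value above 0 in the WT comparison (51.9% of all genes), 8 in the FcD comparison (49.3%) and 7 in the anti-TGF-β comparison (52.9%). The single mAbs stood close to isotype. At the unadjusted threshold none of the 10 passed, by edgeR or by DESeq2, with anti-TGF-β (2.32% of all genes did), anti-PD-1 FcS (0.955%) or the anti-GARP:TGF-β1 mAb as WT (0.969%) or FcD (0.474%). Their medians were 0.28, 0.02, 0.08 and -0.06 in this order, and the gene nearest to the threshold was Alox5 with anti-TGF-β (log2 fold change 0.66). Without replicate 2 of anti-TGF-β this value was 0.06 and the median with that mAb -0.03. All 7 comparisons share the same 5 isotype mice.

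**Figure D2:**
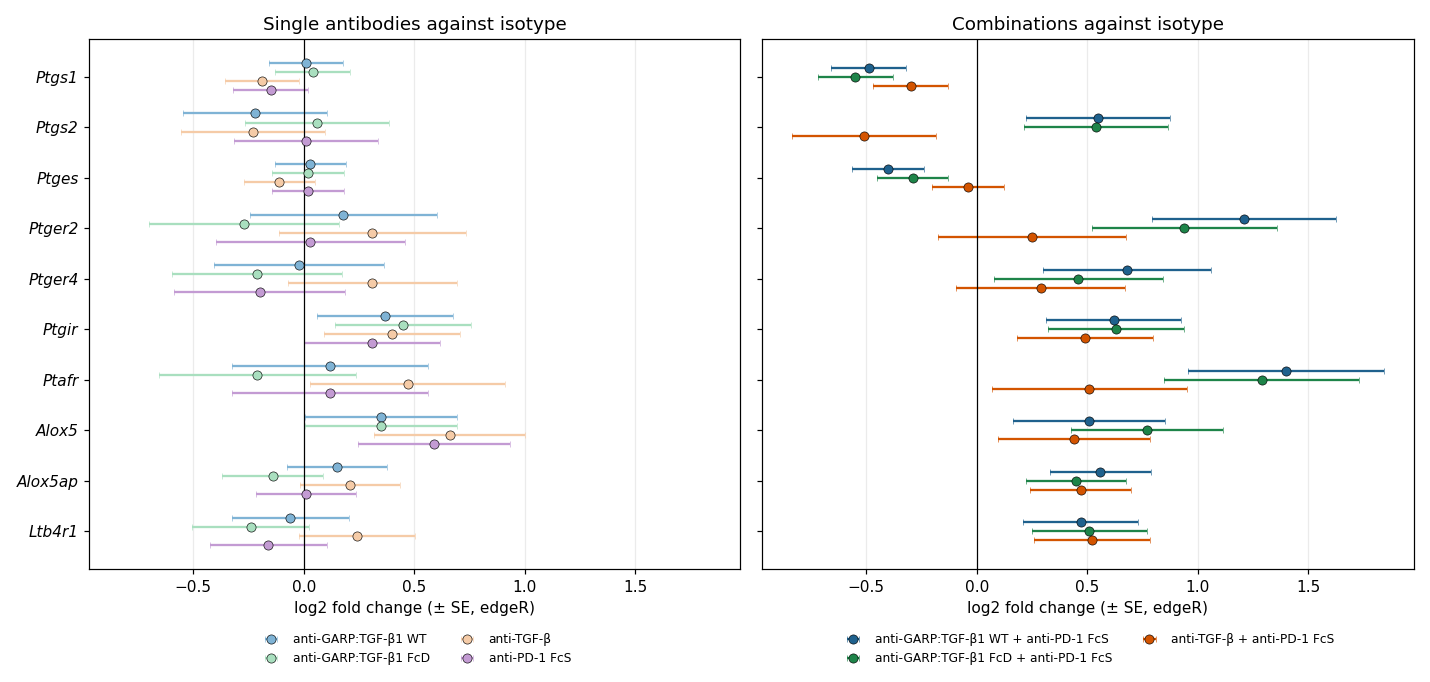
Log2 fold change against isotype (x axis, with SE bars from edgeR) of each of the 10 genes, for the 4 single mAbs on the left and the 3 combinations on the right. With the WT and FcD combinations Ptafr (1.40 and 1.29) and Ptger2 (1.21 and 0.94) lie farthest to the right and Ptgs1 (-0.49 and -0.55) farthest to the left, while Ptgs2 lies on opposite sides of 0 for these combinations and for the anti-TGF-β combination (-0.51).

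Ptgs1, at chr2:36230426-36252272 (+) in GRCm38, encodes cyclooxygenase-1, the form that most tissues make constitutively. In isotype tumors the 5 mice had 145, 148, 144, 146 and 155 CPM, a narrow range (mean 148 ± 4.59, SD, n = 5). With the WT combination they had 118, 123, 93.6, 141 and 49.0 CPM, with the FcD combination 83.5, 138, 102, 76.8 and 104 CPM, and with the anti-TGF-β combination 101, 123, 129, 119 and 126 CPM. In all 3 combinations every mouse lay below every isotype mouse, a separation downwards that 1.62%, 1.29% and 1.29% of all genes showed. The log2 fold changes were -0.49 ± 0.169 (SE, adjusted p = 0.159), -0.55 ± 0.169 (adjusted p = 0.225) and -0.30 ± 0.168 (adjusted p = 0.302), and the first was -0.31 without replicate 5 of the WT combination. Groups given single mAbs overlapped the isotype mice, with means of 129 ± 24.6 CPM with anti-TGF-β to 152 ± 9.51 CPM with anti-GARP:TGF-β1 FcD. Even so, 4 of 5 mice given anti-TGF-β and 3 of 5 given anti-PD-1 FcS lay below every isotype mouse. With anti-GARP:TGF-β1 WT and FcD, 1 and 2 mice lay below and 1 and 3 above all of them. In bulk tumors, fewer cells of a type and less RNA per cell cannot be told apart, here and for the genes that follow. Ptgs1 shares part of its locus with Gm43621, and the strand setting of the counting is not given in the sources used here.

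Ptgs2, at chr1:150100031-150108227 (+), encodes cyclooxygenase-2, which inflammatory signals induce. Its values spread widely within groups: isotype tumors had 234, 128, 83.7, 178 and 146 CPM (154 ± 56.3). The WT combination had 227, 212, 190, 320 and 181 CPM (226 ± 55.9) and the FcD combination 310, 95.9, 217, 314 and 181 CPM (224 ± 91.9). The anti-TGF-β combination had 201, 101, 114, 71.8 and 55.0 CPM (108 ± 56.5). All 3 overlapped isotype. Against isotype these were log2 fold changes of 0.55 ± 0.326 (adjusted p = 0.317), 0.54 ± 0.326 (adjusted p = 0.381) and -0.51 ± 0.327 (adjusted p = 0.372), so that none was called. The means of the 4 other groups lay between 132 CPM (anti-GARP:TGF-β1 WT and anti-TGF-β) and 161 CPM (anti-GARP:TGF-β1 FcD).

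Ptges, at chr2:30889471-30929863 (−), encodes the microsomal synthase that makes prostaglandin E from the cyclooxygenase product. Isotype tumors had 235, 214, 271, 227 and 240 CPM (238 ± 21.3). The WT combination had 208, 229, 178, 199 and 83.2 CPM (180 ± 57.0), the last value lying far below the others, and the FcD combination 168, 259, 183, 153 and 207 CPM (194 ± 41.5). Both overlapped the isotype mice. The log2 fold change with the WT combination was -0.40 ± 0.163 (adjusted p = 0.176), or -0.22 without replicate 5, and with the FcD combination -0.29 ± 0.162 (adjusted p = 0.346). With the anti-TGF-β combination it was -0.04, and the mean was 231 ± 29.7 CPM. The lowest Ptges value of the 40 mice, 83.2 CPM, came from the mouse with the lowest Ptgs1 value, 49.0 CPM.

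The receptors of prostaglandin E had few counts, and in the WT combination their means rested in large part on replicate 5. Ptger2 (EP2, chr14:44988195-45003820, +) had 1.85, 2.32, 1.32, 1.1 and 1.39 CPM in isotype tumors (1.59 ± 0.488). It had 2.48, 1.64, 3.29, 1.9 and 9.15 CPM with the WT combination (3.69 ± 3.12) and 4.11, 2.19, 3.37, 3.84 and 1.86 CPM with the FcD combination (3.07 ± 1.0). Both groups overlapped isotype. The log2 fold change with the WT combination was 1.21 ± 0.418 (adjusted p = 0.159) and without that mouse 0.54, with an unadjusted p above 0.05. With the FcD combination it was 0.94 ± 0.42 (adjusted p = 0.271), and with the anti-TGF-β combination 0.25.

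Ptger4 (EP4, chr15:5206661-5244187, −) had 4.2, 5.68, 7.01, 4.95 and 5.2 CPM in isotype tumors (5.41 ± 1.04). With the WT combination, 4 mice had 3.43 to 8.54 CPM and replicate 5 had 23.0 CPM, the highest of all 40 mice (mean 8.67 ± 8.24). The FcD combination had 8.79, 4.45, 8.9, 8.09 and 6.9 CPM (7.43 ± 1.84), and the groups overlapped. Its log2 fold changes were 0.68 ± 0.381 (adjusted p = 0.291) with the WT combination, which was -0.08 without replicate 5 (the other 4 mice had 5.1 ± 2.32 CPM, below the isotype mean), 0.46 (adjusted p = 0.526) with the FcD combination and 0.29 with the anti-TGF-β combination. The locus overlaps Ttc33, a protein-coding gene on the other strand. Without a stated strand setting it is not known whether reads of the pair were counted apart. Annotated genes also overlap Ptges (Gm13400, on the same strand), Ptger2 (Gm49364 and Gm17173) and Alox5ap (n-R5s180 and Gm19719). Ptgir (chr7:16906490-16910905, +), whose prostacyclin ligand widens vessels and keeps platelets from clumping, had 1.91 ± 0.466 CPM in isotype tumors against 2.93 ± 0.747, 2.96 ± 0.903 and 2.69 ± 1.0 CPM in the WT, FcD and anti-TGF-β combinations. Its log2 fold changes were 0.62 ± 0.306 (adjusted p = 0.243), 0.63 ± 0.307 (adjusted p = 0.298) and 0.49.

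Ptafr (chr4:132564067-132582683, +), the PAF receptor of myeloid cells, had the largest fold changes of the 10 genes with both anti-GARP:TGF-β1 combinations. Isotype tumors had 17.2, 12.9, 18.3, 9.74 and 11.2 CPM (13.9 ± 3.75). The WT combination had 30.6, 16.0, 35.9, 20.6 and 81.2 CPM (36.8 ± 26.0) and the FcD combination 62.0, 16.2, 27.3, 41.4 and 23.4 CPM (34.1 ± 18.1). In each, 4 of 5 mice lay above every isotype mouse and replicate 2 lay within the isotype range. The log2 fold changes were 1.40 ± 0.443 (adjusted p = 0.159) and 1.29 ± 0.442 (adjusted p = 0.235). Leaving out 1 mouse at a time moved the first between 0.89, without replicate 5 of the WT combination, and 1.6, and the second between 0.96, without replicate 1 of the FcD combination, and 1.45, with an unadjusted p under 0.05 in each case. The anti-TGF-β combination had 1 high mouse (45.0 CPM) and 4 mice at 11.6 to 15.6 CPM, with a log2 fold change of 0.51 ± 0.442 (adjusted p = 0.509), which was -0.02 without the high mouse. Single high mice were also found with anti-TGF-β alone (46.5 CPM) and with anti-PD-1 FcS alone (30.4 CPM), whose other mice had at most 16.5 and 12.8 CPM.

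Alox5 (chr6:116410077-116461178, −), the enzyme that starts leukotriene synthesis, had 3.28, 2.54, 2.92, 1.81 and 3.12 CPM in isotype tumors (2.73 ± 0.585). With the WT combination it had 3.43, 3.6, 4.24, 3.51 and 4.79 CPM (3.91 ± 0.588), and every mouse lay above every isotype mouse, which 1.35% of all genes showed. The log2 fold change was 0.51 ± 0.344 (adjusted p = 0.378). With the FcD combination it had 5.98, 3.02, 4.17, 5.39 and 4.78 CPM (4.67 ± 1.14) and a log2 fold change of 0.77 ± 0.344 (adjusted p = 0.272). Its highest values were elsewhere, 10.3 CPM in a mouse given anti-TGF-β and 7.02 CPM in a mouse given anti-PD-1 FcS. Single mAbs also had values above 0 against isotype. The log2 fold change was 0.59 ± 0.344 for PD-1 blockade alone and 0.35 for either anti-GARP:TGF-β1 mAb. For anti-TGF-β it was 0.66, and lower without the mouse at 10.3 CPM, as given above. Set against anti-PD-1 FcS alone (4.14 ± 2.09 CPM), the WT combination had -0.08 ± 0.339 and the FcD combination 0.17 ± 0.338. Neither was called at an unadjusted p under 0.05.

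Alox5ap (chr5:149264767-149288153, +), the membrane protein that hands arachidonate to Alox5, had 48.3, 50.5, 61.4, 55.9 and 58.3 CPM in isotype tumors (54.9 ± 5.41). With the anti-TGF-β combination it had 85.7, 74.7, 85.2, 71.7 and 64.0 CPM (76.3 ± 9.24), every mouse above every isotype mouse, as for 1.73% of all genes, and a log2 fold change of 0.47 ± 0.228 (adjusted p = 0.238). The FcD combination overlapped isotype with 96.5, 54.8, 62.3, 77.4 and 83.2 CPM (0.45 ± 0.227 on the log2 scale, adjusted p = 0.311). With the WT combination 4 mice had 53.7 to 66.5 CPM and replicate 5 had 165 CPM. The log2 fold change of 0.56 ± 0.227 (adjusted p = 0.177) was 0.13 without that mouse.

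Ltb4r1 (chr14:55765962-55768494, +), the high-affinity receptor through which leukotriene B4 attracts neutrophils, had similar means in all 3 combinations. Isotype tumors had 6.55, 5.3, 4.51, 4.64 and 6.86 CPM (5.57 ± 1.08). The WT combination had 7.44, 8.68, 7.72, 6.72 and 8.09 CPM (7.73 ± 0.731), and 4 of its 5 mice lay above every isotype mouse. The FcD combination had 7.92 ± 2.36 CPM and the anti-TGF-β combination 8.0 ± 2.81 CPM, both overlapping isotype. On the log2 scale the fold changes were 0.47 ± 0.261 (adjusted p = 0.289), 0.51 (adjusted p = 0.318) and 0.52 ± 0.262 (adjusted p = 0.258). In replicate 5 of the WT combination Ltb4r1 had 8.09 CPM, within the range of the other 4 mice of its group and above every isotype mouse.

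The 2 sets of libraries differed in these results. Within libraries 61 to 80 (2 or 3 mice a group), 7 of the 10 genes passed the unadjusted threshold of 0.05 against isotype in WT combination mice, where 36.1% of all genes did, and 3 reached an adjusted p of at most 0.05, as 14.2% of all genes did: Ptafr (log2 fold change 1.80), Ptger2 (1.90) and Ptges (-0.69). With replicate 5 of the WT combination, which is in this set, left out, 5 of the 10 passed the unadjusted threshold, where 21.5% of all genes did, and 0 an adjusted p of 0.05, with Ptafr at 1.11, Ptger2 at 1.03 and Ptges at -0.38. Within libraries 41 to 60, 0 of the 10 passed it with either anti-GARP:TGF-β1 combination, as 0.899% (WT) and 2.22% (FcD) of all genes did. The differences of mean log2 CPM from isotype with the WT combination were 0.56 for Ptafr in libraries 41 to 60 and 1.62 in libraries 61 to 80, -0.03 and 1.52 for Ptger2, -0.04 and -0.77 for Ptges, and -0.28 and -0.78 for Ptgs1. Without replicate 5 the values of libraries 61 to 80 were 1.10 for Ptafr, 0.92 for Ptger2, -0.38 for Ptges and -0.37 for Ptgs1. With the FcD combination they were 1.01 and 1.30 for Ptafr, 0.56 and 1.01 for Ptger2, -0.17 and -0.46 for Ptges, -0.47 and -0.73 for Ptgs1, 0.53 and 0.96 for Alox5, and 0.11 and 0.88 for Ptgs2, which had 0.34 and 0.78 with the WT combination. With the anti-TGF-β combination Ptafr had 0.82 and 0.03. With the set as a covariate in a fit of all mice, 6 genes (WT combination) and 4 genes (FcD combination) were called at that threshold, against 21.1% and 16.2% of all genes. The part of the set in these results was not tested beyond these values.

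**Figure D3:**
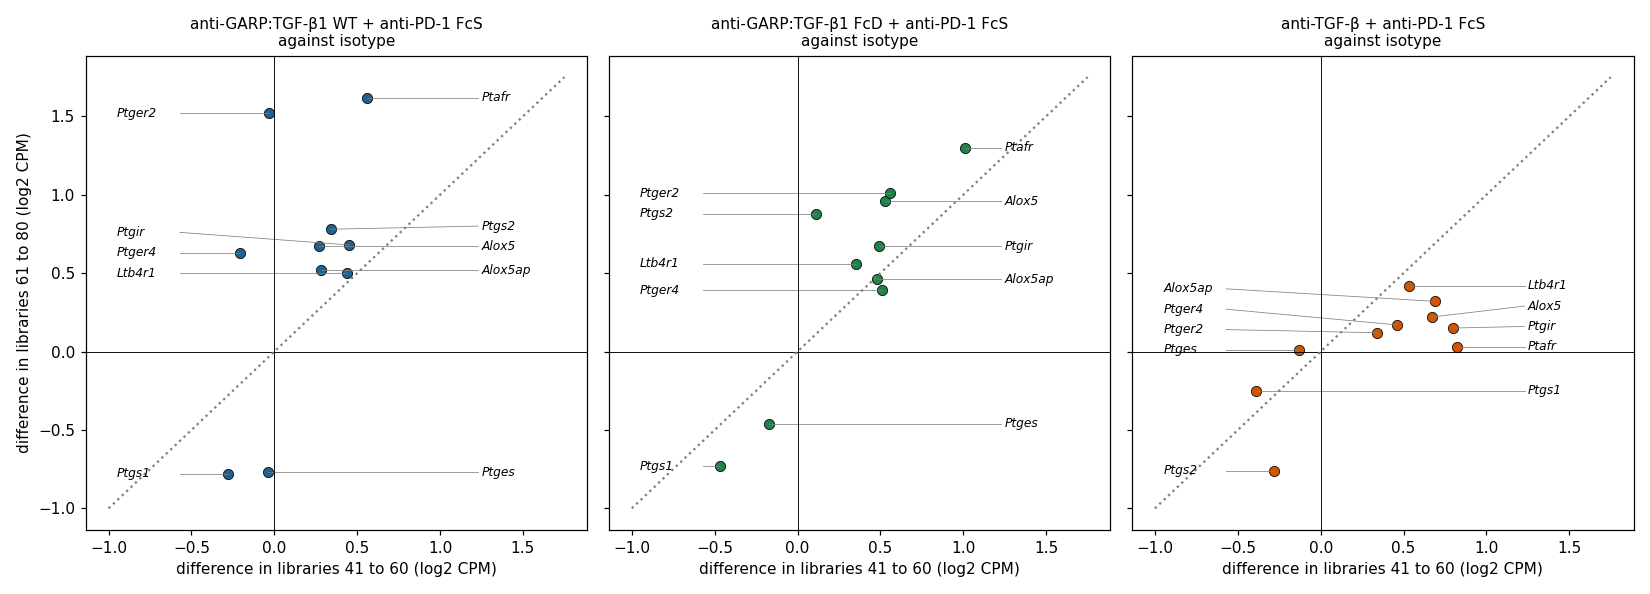
Difference of the mean log2 CPM of each combination from isotype, with libraries 41 to 60 on the x axis and libraries 61 to 80 on the y axis, 1 point a gene, and a dotted line where both sets are equal. Ptafr lies above 0 on both axes with the WT combination (0.56 and 1.62) and the FcD combination (1.01 and 1.30), whereas Ptger2 and Ptges lie near 0 on the x axis in the WT panel.

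Set against anti-PD-1 FcS alone, which asks what each second mAb added, Ptafr and Ptger2 had the largest fold changes of the 10 genes with both anti-GARP:TGF-β1 combinations when all mice were used. For the WT combination, Ptger2 no longer ranked second without replicate 5 (0.51). Ltb4r1 was at 0.52 or more there with any 1 mouse left out. These comparisons share the combination mice with those against isotype. Of the 10, 7 were called at the unadjusted threshold for the WT combination, 5 higher and 2 lower, against 17.2% of all genes (11.2% higher and 5.99% lower), and 0 an adjusted p under 0.05. The log2 fold changes were 1.28 for Ptafr (adjusted p = 0.231), 1.18 for Ptger2 (adjusted p = 0.231), 0.89 ± 0.383 for Ptger4 (adjusted p = 0.253), 0.63 for Ltb4r1 (adjusted p = 0.246), 0.55 for Alox5ap (adjusted p = 0.243), -0.42 for Ptges (adjusted p = 0.233) and -0.34 for Ptgs1 (adjusted p = 0.289). Without replicate 5 of the WT combination 1 was called, Ltb4r1, and Ptger4 was at 0.12, Alox5ap at 0.12, Ptafr at 0.76, Ptger2 at 0.51, Ptges at -0.24 and Ptgs1 at -0.16. That fit called 5.42% of all genes. Without replicate 1 or 4 of anti-PD-1 FcS 4 were called (9.61% and 14.9% of all genes). Without its replicate 2, 8 were called, as were 25.6% of all genes, and Ptafr passed an adjusted p of 0.05 (log2 fold change 1.70, adjusted p = 0.0416), which 3.6% of all genes did. That mouse had a sum of 144 CPM of 4 skeletal muscle markers, where the next highest of the 40 mice had 13.7 CPM, and all 4 markers were lower at an unadjusted p under 0.05 in each combination against anti-PD-1 FcS (median log2 fold changes -4.08, -3.73 and -4.34), as 0 were without that mouse. It also had the second highest sum of mast cell markers (525 CPM). Of the cell markers, 8 of 9 of macrophages (median log2 fold change 0.81), 6 of 9 of mast cells (0.95) and 5 of 6 of T cells (1.61) were higher at the unadjusted threshold with the WT combination against anti-PD-1 FcS. Without replicate 5 of the WT combination 0 of each were (medians 0.19, 0.58 and 0.54). With the FcD combination 1 of 9, 1 of 9 and 0 of 6 were (0.59, 0.56 and 0.92), and without replicate 2 of anti-PD-1 FcS 8 of 9, 9 of 9 and 6 of 6. The marker sums of the anti-PD-1 FcS mice were 1210 to 3120 CPM (median 1810) for macrophages, 75.8 to 525 CPM (101) for mast cells and at most 85.4 CPM (29.9) for T cells. The part of these cells and tissues in the comparisons with anti-PD-1 FcS was not tested.

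With the FcD combination 4 were called against anti-PD-1 FcS, 3 higher (Ptafr 1.17, Ptger2 0.91 and Ltb4r1 0.67) and 1 lower (Ptgs1 -0.40), against 10.7% of all genes (6.46% higher and 4.27% lower), each with an adjusted p of 0.458. This count was 1 without replicate 1 of the FcD combination, 2 without its replicate 4 or without replicate 1 or 3 of anti-PD-1 FcS, and 7 without replicate 2 of either group. Over these fits the share of all genes ran from 4.74%, without replicate 4 of the FcD combination, to 25.2%, without its replicate 2. With the anti-TGF-β combination 2 were called, Ltb4r1 (0.68, adjusted p = 0.212) and Alox5ap (0.47, adjusted p = 0.288), both higher, against 17.1% of all genes (7.0% higher and 10.1% lower), of which 0.00678% passed an adjusted p of 0.05. The number of the 10 called here was 0 without replicate 3 of that combination and 1 or 2 without any other mouse, where 9.27 to 28.1% of all genes were called. DESeq2's test called 7, 4 and 2 at an unadjusted p under 0.05 and 0 at an adjusted one.

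The Fc part of the anti-GARP:TGF-β1 mAb made no difference that could be detected in these genes beside anti-PD-1 FcS. The log2 fold changes of the FcD against the WT combination ran from -0.27 ± 0.405 (Ptger2) to 0.25 ± 0.338 (Alox5), with unadjusted p-values of 0.456 to 0.969, and 0 of the 10 were called, against 1.3% of all genes (0 of the 10 by DESeq2 as well). When replicate 5 of the WT combination was left out, they ran from -0.24 (Ptgs1) to 0.54 (Ptger4), with Ptger2 at 0.40, Ptafr at 0.41 (-0.11 with all mice) and Alox5ap at 0.32 (-0.11), and 0 were called, against 5.35% of all genes. A p above the threshold does not show that the 2 formats act alike. The interaction, which compares the fold change of a combination with the sum of the fold changes of its 2 mAbs, had 2 of the 10 genes at an unadjusted p under 0.05 for anti-GARP:TGF-β1 FcD, against 4.49% of all genes (2.45% higher and 2.05% lower): Ltb4r1 (0.91 ± 0.373, adjusted p = 0.787) and Ptafr (1.37 ± 0.626, adjusted p = 0.787). For anti-GARP:TGF-β1 WT it had 0 of the 10, against 8.75% of all genes, with Ptafr at 1.16 ± 0.623 (adjusted p = 0.483) and Ptges at -0.45 ± 0.23 (adjusted p = 0.483), which were 0.64 and -0.27 without replicate 5 of the WT combination. For anti-TGF-β it had 0 of the 10, against 2.3%. DESeq2's test called 2, 0 and 0 at this threshold. These counts ran from 1 to 6 for the FcD mAb, with 6 without replicate 2 of its combination (11.9% of all genes) and 5 without replicate 2 of anti-PD-1 FcS (11.1%). They ran from 0 to 5 for the WT mAb, with 5 without replicate 2 of anti-PD-1 FcS (18.5%). The share of all genes was at least 2.77% and 3.37% in these fits. In a test of any difference among the 8 groups, 6 of the 10 had an unadjusted p under 0.05, against 24.7% of all genes: Ptafr (adjusted p = 0.128), Ptgs1 (adjusted p = 0.135), Ptger2 (adjusted p = 0.146), Ltb4r1 (adjusted p = 0.151), Ptgs2 (adjusted p = 0.169) and Alox5ap (adjusted p = 0.174). None passed an adjusted p of 0.05 by edgeR's test (0.0271% of all genes did), whereas DESeq2's likelihood ratio test called 3, Ptafr, Ptger2 and Ptgs1, where it called 7.79% of all genes with an adjusted p.

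Across the 40 mice, Ptgs1 and Ptges varied together and had negative correlations with the other genes, many of which correlated positively with each other. Over the 45 pairs of the 10 genes, 35 correlations of log2 CPM passed an adjusted p of 0.05 (100000 permutations of mice, 2-sided, Benjamini-Hochberg over the 45 pairs), 19 positive and 16 negative. This count is read against a background of 41.5% of all 108921420 pairs of tested genes with a correlation at least as large as the smallest that passed (0.35 in size), 20.8% positive and 20.7% negative. Ptgs1 and Ptges varied together (r = 0.90, rho = 0.63), and against Ptafr both had negative correlations (r = -0.85, rho = -0.62 and r = -0.83, rho = -0.63). Ptafr and Ptger2 varied together (r = 0.85, rho = 0.77), as did Ptafr and Alox5ap (r = 0.78, rho = 0.64), Ptger4 and Alox5ap (r = 0.75, rho = 0.63) and, among the rarest transcripts, Ptgir and Alox5 (r = 0.63, rho = 0.69). Ltb4r1 did not pass with Ptger4 (r = 0.17, rho = 0.11), Ptgir (r = 0.16, rho = 0.22) or Alox5 (r = 0.19, rho = 0.29). For Ptgs1 and Ptges, Ptgs1 and Ptafr, Ptges and Ptafr, Ptger2 and Ptafr, Ptafr and Alox5ap, and Ptger4 and Alox5ap, the permutation p of r was the smallest that 100000 permutations can give (1e-05, adjusted p = 3.21e-05), and the adjusted p of rho was between 0.00015 and 0.000225. For Ptgir and Alox5 the adjusted permutation p was 5.62e-05 for r and 0.00015 for rho.

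The correlations moved to different degrees with mice, group means or sets left out. Of the 35 pairs, 8 did not pass with the mean of each group removed, among them Ptgs1 and Ltb4r1 (r = -0.42 with all mice and -0.11 then, adjusted permutation p = 0.532), Ptges and Ltb4r1 (-0.37 and -0.16, adjusted permutation p = 0.387) and Ptgs1 and Ptgs2 (-0.35 and -0.20, adjusted permutation p = 0.272). The values that follow are those of strongly correlated pairs. Without the 2 mice farthest from the median of the first gene, r was 0.78 for Ptgs1 and Ptges, -0.80 for Ptgs1 and Ptafr, 0.82 for Ptger2 and Ptafr and 0.59 for Ptger4 and Alox5ap. With group means removed it was 0.90, -0.78, 0.78 and 0.72. Within libraries 41 to 60 it was 0.84, -0.87, 0.86 and 0.77, and within libraries 61 to 80 it was 0.92, -0.90, 0.85 and 0.73. The count of pairs past an adjusted p of 0.05 was 28 with group means removed, 34 within libraries 41 to 60 and 23 within libraries 61 to 80, and 35 without replicate 5 of the WT combination. All 10 genes are read from the same library of a mouse, so each pair shares its depth and its mix of cells.

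**Figure D4:**
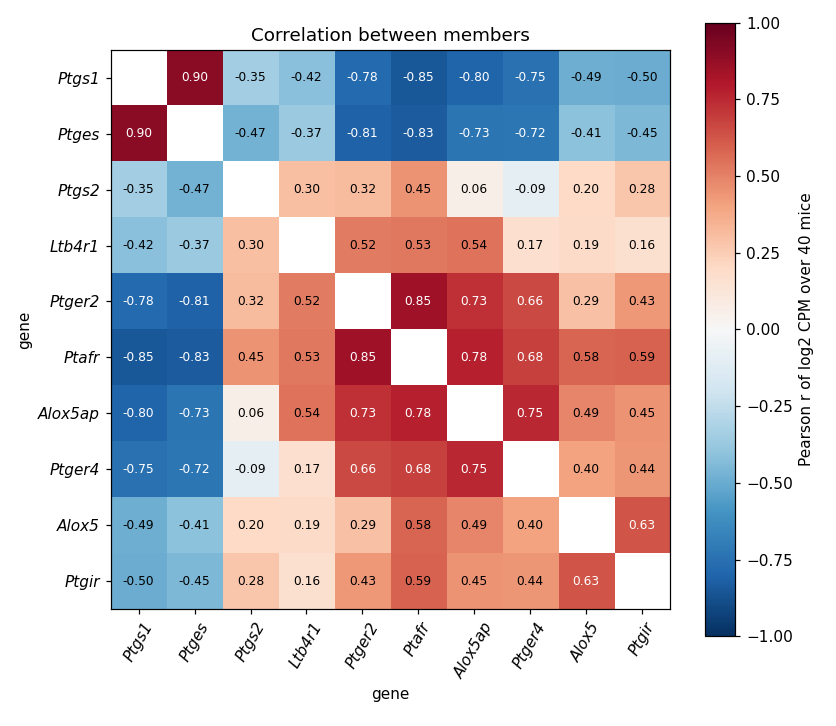
Pearson r of log2 CPM over the 40 mice for every pair of the 10 genes, both axes listing the genes and the color running from blue (-1) to red (1). Ptgs1 and Ptges correlate with each other (0.90) and negatively with the other 8, and those of Ptgs2 run from 0.06 in size with Alox5ap to -0.47 with Ptges.

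Ptgs2 had mixed relations to the other genes. It had r = 0.06 (rho = 0.02) with Alox5ap and r = -0.09 (rho = -0.08) with Ptger4, neither past the threshold (adjusted permutation p of r = 0.713 and 0.608). With Ptafr it had r = 0.45 (rho = 0.37, adjusted permutation p = 0.00548 and 0.0267), which was 0.32 with group means removed (adjusted permutation p = 0.0627), 0.41 in libraries 41 to 60 and 0.47 in libraries 61 to 80. With Ptges it had r = -0.47 (rho = -0.65, adjusted permutation p = 0.00295 and 0.000193) and with Ptgs1 r = -0.35 (rho = -0.31, adjusted permutation p = 0.0372 and 0.0661). With group means removed these r were -0.32 and -0.2 (adjusted permutation p = 0.0627 and 0.272). By rank Ptgs2 also passed with Ptger2 (rho = 0.36, adjusted permutation p = 0.0294) and Ltb4r1 (rho = 0.40, adjusted permutation p = 0.0166), whose r did not (0.32 and 0.30, adjusted permutation p = 0.053 and 0.0683). The 2 cyclooxygenase transcripts had a weak negative correlation, past the threshold by r and not by rho.

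**Figure D5:**
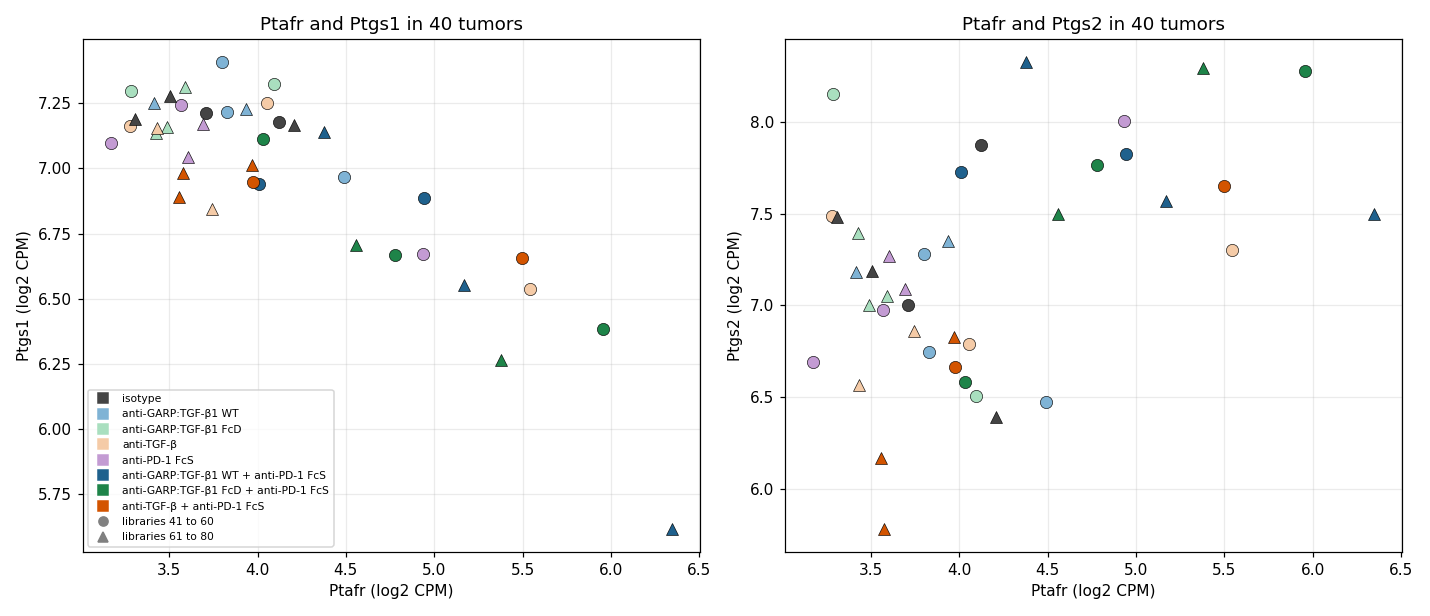
Log2 CPM of Ptafr (x axis) against that of Ptgs1 (left) and Ptgs2 (right) in the 40 tumors, colored by group, with circles for libraries 41 to 60 and triangles for libraries 61 to 80. Ptgs1 is lower where Ptafr is higher (r = -0.85), with replicate 5 of the WT combination at the lower right (Ptafr 81.2 CPM, Ptgs1 49.0 CPM), while the points of Ptgs2 scatter (r = 0.45).

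The genes most like each member over the 40 mice, by Pearson r of log2 CPM among the 14760 genes tested, are given as a description. For Ptgs1 they were Spry4 (r = 0.94), Cbx6 (0.93) and Mtmr11 (0.92), and Cbx6 was also among those of Ptges (0.95), with RP23-300H4.1 and Npdc1 (both 0.95). For Ptafr they were Pltp (0.95), Hal and Csf2rb2 (both 0.94). For Alox5ap, Rnf130 (0.94) and Pirb (0.93) were among them. For Ptger4 they were Rassf5, Tlr2 and Rgs3 (all 0.89), and for Ptger2 Acvrl1, Plekho2 (both 0.91) and Ikbke (0.90). For Ptgs2 they were Lrrfip1, Vps37a and Eaf1 (all 0.89). Ltb4r1 (Tarm1, 0.86, Pdcd1lg2, 0.78 and Bst1, 0.72), Alox5 (Aplnr, 0.85, Gas6, 0.84 and Rcn3, 0.83) and Ptgir (Zfp521, 0.76, Peg3, 0.73 and Igf1, 0.71) had looser neighbours.

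The other genes of the pathway were taken from lists of 54 genes, all in the table, of which 43 passed the filter. None had an adjusted p under 0.05 in any comparison with isotype (edgeR; smallest 0.158) in the fit of all mice. Within libraries 61 to 80, 10 of the 42 tested did with the WT combination, as 14.2% of all genes did, and 0 without replicate 5. With only the compared groups in the model 2 of 36 (FcD combination) and 1 of 35 (anti-TGF-β combination) did, against 1.3% and 0.0593% of all genes. At the unadjusted threshold, the WT combination had 12 of the 43 higher and 3 lower, the FcD combination 16 higher and 2 lower, and the anti-TGF-β combination 4 higher and 0 lower, beside the shares of all genes given above. With single mAbs the counts were 3 higher (anti-TGF-β), 1 higher (anti-PD-1 FcS) and 0 (both anti-GARP:TGF-β1 mAbs), with 0 lower. The medians of the 43 log2 fold changes were 0.45, 0.42 and 0.22 for the WT, FcD and anti-TGF-β combinations. Without replicate 5 of the WT combination, 2 of the 43 were higher and 1 lower and the median was 0.06, and without replicate 4 or 1 of the FcD combination 5 and 10 were higher (median 0.44 and 0.32). Within libraries 41 to 60 the WT combination had 0 of the 43 higher and 0 lower (median -0.01) and the FcD combination 1 and 0 (0.33). Within libraries 61 to 80 they had 14 higher and 5 lower of 42 (0.59) and 13 higher and 2 lower (0.36), where 36.1% (WT) and 23.1% (FcD) of all genes passed.

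Among 7 tested phospholipases, 2 were higher and 1 lower at this threshold with the WT combination and 2 were higher with the FcD combination. The shares of all genes beside this and each list that follows were 20.7% (WT, 13.2% higher) and 16.6% (FcD, 10.7% higher). Pla2g4a, the cytosolic enzyme that releases arachidonate, was among both, with 62.2 ± 6.07 CPM in isotype tumors against 75.8 ± 4.38 and 77.2 ± 10.5 CPM (log2 fold changes 0.28 and 0.31). Among 8 other prostanoid synthases 3 and 2 were higher, including thromboxane synthase, Tbxas1, with 23.3 ± 1.58 CPM against 51.1 ± 46.2 and 40.3 ± 10.1 CPM (1.13 and 0.79). Without replicate 5 the WT value was 0.39, the other 4 mice having 30.7 ± 8.03 CPM. The prostaglandin transporter Slco2a1 was 1 of 2 among 5 genes of transport and breakdown, with 4.5 ± 0.72 CPM against 10.7 ± 9.83 and 10.8 ± 8.0 CPM (1.24 and 1.26), which were 0.51 without replicate 5 of the WT combination and 0.71 without replicate 4 of the FcD combination. Of 4 tested prostanoid receptors outside the 10 genes, 0 were called with the WT combination and 1, Ptger3, with the FcD combination, from 0.206 ± 0.0805 to 1.4 ± 2.1 CPM, an SD larger than the mean (log2 fold change 2.70, or 1.12 without replicate 4). Over these 4 lists, 1 gene was called, a phospholipase, when replicate 5 (WT combination) or replicate 4 (FcD combination) was left out. In these fits 5.85% and 8.02% of all genes were called.

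Of 9 leukotriene and lipoxygenase enzymes, 2 were higher and 1 lower with the WT combination and 7 higher and 1 lower with the FcD combination. For this list and the PAF genes below, 20.7% (WT, 13.2% higher) and 16.6% (FcD, 10.7% higher) of all genes passed. With replicate 5 of the WT combination left out, 1 was higher and 0 lower (5.85% of all genes passed), and without replicate 4 of the FcD combination 2 were higher and 0 lower (8.02%). With all mice the lower one was in both cases Lta4h, which makes leukotriene B4 (147 ± 8.95 CPM in isotype tumors against 129 ± 15.4 and 130 ± 6.43 CPM, log2 fold changes -0.19, or -0.12 without replicate 5, and -0.18). Alox15, the 12/15-lipoxygenase of macrophages and eosinophils, had 0.291 ± 0.14 CPM in isotype tumors against 0.956 ± 0.587, 1.38 ± 0.674 and 1.02 ± 0.501 CPM in the 3 combinations (1.68, 2.20 and 1.77, adjusted p = 0.169, 0.225 and 0.158). Among 3 other lipid receptors, Fpr2, which binds lipoxin and formyl peptides, had 19.0 ± 2.6 CPM against 36.8 ± 22.6, 39.7 ± 8.97 and 36.3 ± 3.96 CPM (0.95, 1.06 and 0.93), the first being 0.49 without replicate 5. Of 7 genes of PAF synthesis and breakdown, 1 was higher and 1 lower with both anti-GARP:TGF-β1 combinations. These were the PAF acetylhydrolases Pla2g7 (167 ± 20.4 CPM against 245 ± 120 and 227 ± 44.4 CPM) and Pafah2 (15.2 ± 0.793 CPM against 12.0 ± 0.841 and 12.3 ± 1.58 CPM). Pla2g7 is the plasma-type enzyme and Pafah2 1 of several intracellular ones in the list. Their log2 fold changes were 0.55 and -0.35 with the WT combination (0.21 and -0.36 without replicate 5) and 0.44 and -0.30 with the FcD combination.

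The levels of myeloid and mast cell markers are given beside these values. The summed level of 9 macrophage markers, all 9 in the table and none at 0 in any mouse, was 1650 to 2440 CPM in isotype tumors (median 1990), 1810 to 8050 (2120) with the WT combination, 2210 to 3490 (2950) with the FcD combination and 2410 to 3050 (2790) with the anti-TGF-β combination. The sum of 9 mast cell markers, none of which was at 0 in any mouse either, was 60.5 to 165 CPM (median 98.1) in isotype tumors, 181 to 680 (286), 136 to 318 (291) and 112 to 437 (167) CPM. That of neutrophil markers, of which 7 of 8 were in the table, was 49.5 to 90.8 (58.5), 61.2 to 191 (91.2), 69.2 to 215 (111) and 73.0 to 163 (103) CPM. Marker calls against isotype at an unadjusted p under 0.05 follow for the WT, FcD and anti-TGF-β combinations. Of 9 macrophage markers 7, 3 and 1 were higher, and of 9 mast cell markers 8, 9 and 3, with 0 lower. Of 7 neutrophil markers 1, 4 and 3 were higher and 1, 0 and 0 lower. The shares of all genes were 20.7%, 16.6% and 20.1%. Replicate 5 of the WT combination, which had the highest Ptger2, Ptger4, Ptgir, Ptafr and Alox5ap and the lowest Ptgs1 and Ptges of all 40 mice, also had the highest macrophage (8050 CPM) and mast cell (680 CPM) sums, and the highest T cell (281 CPM) and endothelial (450 CPM) sums. The mouse with the highest Alox5, replicate 2 of anti-TGF-β, had the highest neutrophil sum (341 CPM) and the second highest macrophage sum (4030 CPM), and it also ranked first for fibroblast markers (3860 CPM) and second for platelet, T cell, B cell, endothelial and adipocyte markers (71.9, 142, 38.4, 233 and 292 CPM). The part of these cells in the values of the 10 genes was not tested.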

How the data were processed

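Tumor RNA of 40 mice was analysed, 5 in each of 8 groups taken from the labels. The libraries were stranded and prepared from mRNA. The authors used STAR 2.5.3a for alignment to GRCm38 and HTSeq 0.9.1 to count reads per gene (versions from the submitters' processing notes, which also list SAMtools 1.6), and deposited raw counts of 54087 genes. The strand setting of the counting is not given in the sources used here. All 40 columns were used.

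Counts were normalized with TMM and filtered with filterByExpr in edgeR 4.0.16 (R 4.3.3, limma 3.58.1), and 14760 genes were tested with the robust quasi-likelihood test, 2-sided, in 1 model of the 8 groups, with Benjamini-Hochberg adjustment over all of them. CPM are counts per 1000000 of the TMM-scaled library size. The SE was taken as the size of the log2 fold change over the root of its F statistic. A gene was called at an unadjusted p under 0.05 where this is said and otherwise at an adjusted p under 0.05. Pairs of genes were tested on log2 CPM (prior count 2) with 100000 permutations in Python 3.11.15 (numpy 2.4.6, scipy 1.17.1, pandas 2.3.3). Figures used matplotlib 3.10.9. Exon lengths and positions are those of a GENCODE annotation of GRCm38, and promoters are RefSeq's. Exon lengths cover all annotated exons of a gene, with overlapping bases counted once. The tests were checked on simulated data.

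Named are the 10 genes, from each pathway list at most 3 genes (smallest p over the 8 groups) and any with an adjusted p under 0.05 (none), and the 3 genes most like each member, of which 1 is not reported here. These genes, lists and marker lists were chosen with earlier results of these data known. The 12 marker lists were macrophage, mast cell, neutrophil, platelet, T cell, B cell, fibroblast, endothelial, epithelial, keratinocyte, skeletal muscle and adipocyte. Alternatives were DESeq2 1.42.0 (its size factors and its test), no filter, only the groups compared, the library set as a covariate or alone, a prior count of 0.5, and leaving out single mice. The labels list 5 tumor samples a group, taken here as 1 mouse each, and name no cages or litters, so that p-values measure the spread between these samples. Replicates were numbered in the order of deposit. Counting error limits Ptger2, Ptgir and Alox5 most, with as few as 8, 14 and 23 counts in a mouse.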

Additional observations from a re-analysis of the deposited data

Results flagged for a closer look

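In groups of 5 mice, a mouse is named here where its gap to the nearest other mouse exceeded what Dixon's 95% limit allows, which chance alone gives in about 1 in 20 groups. Of 80 groups (10 genes in 8 treatments), 9 held such a mouse (11.2%).

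Replicate 5 of the WT combination was named for Ptges, with 83.2 CPM where the other 4 mice had 178 to 229 CPM, and for Alox5ap, with 165 CPM against 53.7 to 66.5 CPM. Replicate 1 of the anti-TGF-β combination was named for Ptges (180 CPM against at least 234 CPM) and for Ptafr (45.0 CPM against 11.6 to 15.6 CPM), and replicate 3 of that group for Ptger4 (4.76 CPM against 6.59 to 7.49 CPM). With single mAbs, Alox5 was high in replicate 2 of anti-TGF-β (10.3 CPM against 2.58 to 3.26 CPM) and Ptges in replicate 5 of anti-GARP:TGF-β1 WT (286 CPM against 223 to 239 CPM). Ptger4 was low in replicate 2 of anti-GARP:TGF-β1 FcD (2.17 CPM against 4.58 to 6.02 CPM) and Ptgir in replicate 5 of anti-PD-1 FcS (1.01 CPM against 2.51 to 2.88 CPM). None of the 30 interaction tests of the 10 genes passed an adjusted p of 0.05 by edgeR's test, and 2 had passed the unadjusted threshold (Ltb4r1 and Ptafr, for the FcD mAb).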

How the results depend on the processing

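No gene of the 10 passed an adjusted p of 0.05 in any comparison as reported, and this held under 314 of 322 alternatives, together with the count of pairs. The exceptions follow. Within libraries 61 to 80, 3 genes passed with the WT combination against isotype and 3 (Ptafr, Ptger2 and Ptgs2) in the test of any difference among the 8 groups. DESeq2's test of any difference called 3. The shares of all genes with an adjusted p under 0.05 were 14.2%, 18.7% and 7.79% in these cases. Leaving out 1 mouse gave 0 to 1 gene for the WT combination against anti-PD-1 FcS (1 without replicate 2 of anti-PD-1 FcS) and 0 to 3 for any difference (3 without replicate 1 of the anti-TGF-β combination, 2 without replicate 2 of the FcD combination and 1 without replicate 2 of anti-TGF-β). The shares of all genes in these 4 fits were 3.6%, 15.3%, 7.74% and 2.61%. The count of correlated pairs was 23 within libraries 61 to 80, which hold 20 mice, against 35.

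Of 26 fold changes with an unadjusted p under 0.05, 2 changed sign, both within libraries 41 to 60: Ptger2 with the WT combination against isotype (-0.02) and Ptger4 with the WT combination against anti-PD-1 FcS (-0.23). The cause was not tested. These were the sign changes among 467 alternatives. Without replicate 5 of the WT combination, fold changes above that threshold in the WT comparison with isotype changed sign as well, among them Ptger4 (-0.08), Ptger3 (-0.02), Cysltr1 (-0.06) and Dpep2 (-0.02). The number of the 10 past the unadjusted threshold of 0.05 moved more. With only the compared groups in the model it was 9 in place of 5 for the FcD combination against isotype, 3 in place of 1 for the anti-TGF-β combination, 3 in place of 7 (WT) and 7 in place of 4 (FcD) against anti-PD-1 FcS, and 2 in place of 0 (WT) and 7 in place of 2 (FcD) for the interactions. The shares of all genes in these fits were 21.3%, 20.9%, 6.89%, 11.1%, 8.52% and 9.25%. Within libraries 41 to 60 it was 0 for each combination against isotype, 1 for each against anti-PD-1 FcS and 0 in place of 6 for any difference (0.899 to 2.26%, 2.28 to 2.35% and 0.658% of all genes). Within libraries 61 to 80 it was 2 in place of 4 (FcD) and 1 in place of 2 (anti-TGF-β) against anti-PD-1 FcS and 3 for any difference (14.7%, 21.2% and 37.9%). The anti-TGF-β combination against anti-PD-1 FcS had 1 in place of 2 without the filter (10.2%) or with the library set as a covariate (16.9%). The interactions within a set were 1 (WT, 2.55%) and 0 (FcD, 1.66%) in libraries 41 to 60 and 2 (16.7%) and 1 (6.38%) in libraries 61 to 80, and with the set as a covariate 1 for WT (8.79%). The pairs, the other genes of the pathway, the markers and libraries 61 to 80 without mice that stood apart were alternatives chosen after seeing the data. No paired analysis was possible because the labels give no replicate numbers that groups share.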

Other observations

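Summed levels of the other marker lists, in isotype tumors and in the WT, FcD and anti-TGF-β combinations, are given as values. The sum of 5 platelet markers, of which Gp1bb was at 0 in all 40 mice, had medians of 20.6, 28.6, 26.0 and 30.5 CPM, that of 6 T cell markers 57.6, 53.0, 60.9 and 49.3 CPM, and that of 4 B cell markers 3.19, 4.62, 4.12 and 4.38 CPM. The medians were 1090, 949, 1410 and 1100 CPM for 7 fibroblast markers, 94.1, 103, 134 and 110 CPM for 4 endothelial markers, and 25.6, 31.3, 17.1 and 32.5 CPM for 7 epithelial markers. For 4 markers each they were 4.36, 4.88, 5.2 and 5.58 CPM (keratinocyte), 1.57, 1.9, 1.84 and 1.89 CPM (skeletal muscle) and 8.4, 55.6, 103 and 27.4 CPM (adipocyte). Against isotype at an unadjusted p under 0.05, 4 of 4 B cell markers were higher with the anti-TGF-β combination (20.1% of all genes passed). With the WT or FcD combination 0 were. With the FcD combination 5 of 6 tested epithelial and 4 of 4 adipocyte markers were higher (16.6% of all genes passed), against 1 and 0 with the WT combination. Replicate 5 of the anti-TGF-β combination had 84.4 CPM of B cell markers, the highest of the 40 mice. Single mice reached 237 CPM (WT combination) and 503 CPM (replicate 4 of the FcD combination, which also had 570 CPM of adipocyte and 28.7 CPM of keratinocyte markers, each the highest of the 40 mice) for the epithelial sum and 281 CPM of T cell markers (replicate 5 of the WT combination).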
